A study of Mus musculus with 2 samples.

Results

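The matrix metalloproteinases (Mmp), the ADAMTS proteases (Adamts) and the tissue inhibitors of metalloproteinases (Timp) were examined in single cells of the intestinal lamina propria of tumour-prone mice. The genes were chosen by symbol alone: Mmp, Adamts or Timp1 to Timp4 followed by the family number, with 1 further letter allowed for Mmp. This gave 45 of the 31053 genes in the files, with 22 Mmp, 19 Adamts and 4 Timp genes. Mmp1a is not analysed here. The study asked whether Lef1, a transcription factor of the Wnt pathway, affects the stroma around intestinal adenomas. It has 2 single-cell RNA libraries, 1 for each genotype. ApcMin mice carried the Apc Min/+ mutation with Lef1 intact. VApcMinL mice carried the same Apc Min/+ mutation together with Villin-Cre and Lef1 fl/fl. Villin-Cre is a constitutive Cre driven in the intestinal epithelium, so the deletion is made in epithelial cells, while the sort was for stromal cells. The labels give an age of 11 weeks for both groups, on a C57BL/6 background, while the study's text also gives another age for these cells. How many mice went into each library is not given in the sources used here. The tissue was treated with EDTA for 20 min and then digested with Liberase TL for 60 min at 37 °C. Live cells negative for Ter119, Epcam and CD45 were sorted before 10x Genomics 3' sequencing.

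Matrix metalloproteinases are zinc proteases made as inactive proenzymes. Collagenases, gelatinases and stromelysins are secreted and cut fibrillar collagen, denatured or basement membrane collagen, and proteoglycans, while the membrane-type enzymes act at the cell surface. ADAMTS proteases carry thrombospondin repeats that tether them to the matrix. Some of them cut the proteoglycans versican and aggrecan and others trim the propeptides of fibrillar procollagens. The TIMPs bind the active sites of these enzymes, and TIMP3 is itself bound to the matrix and also inhibits ADAMTS proteases. In the gut, fibroblasts are a main source of the secreted enzymes and their inhibitors, macrophages make elastase and gelatinase, and matrilysin (Mmp7) is known from Paneth cells and from adenomas.

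A cell was a barcode with at least 3000 UMIs (counts of single RNA molecules) and at most 20% mitochondrial UMIs. This left 6599 ApcMin and 6569 VApcMinL cells with medians of 10849 and 9111 UMIs, and 18 barcodes occurred in both libraries. The mitochondrial limit left out 75 ApcMin and 531 VApcMinL barcodes. Clusters made without the protease and inhibitor genes were named from marker lists, and each name ends in "-like". The class labelled fibroblast-like held 3354 and 3696 cells, and all 10 fibroblast markers were found in at least 25% of its cells in both libraries. The gate had excluded Epcam, CD45 and Ter119, yet 49 ApcMin and 346 VApcMinL cells were epithelial-like, 288 and 226 were myeloid-like, and 1365 and 363 were erythroid-like. Levels are in CPM, the UMIs of a gene per 1000000 UMIs of its class and library. Lef1 had 22 UMIs (7.56 CPM) in epithelial-like cells of ApcMin and 29 UMIs (1.94 CPM) in those of VApcMinL. In fibroblast-like cells, the summed epithelial markers were at 30.1 CPM in ApcMin and 360 in VApcMinL, and 8 mast cell markers were at 37.5 and 3.61. Their part in the differences given here was not tested. With 1 library for each genotype there is no replicate spread, so no difference between genotypes could be tested. All intervals are exact, at 95%, and cover counting error only. Genotype, library and mouse cannot be told apart.

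The Mmp genes of chromosome 9 lie side by side. The stretch runs from 7272514 to 7699585 on GRCm38 (GENCODE vM21), 427 kb in all, and holds 9 members in the order Mmp13, Mmp12, Mmp1b, Mmp3, Mmp10, Mmp8, Mmp27, Mmp20 and Mmp7. The 5 of them with the most UMIs were highest in 3 different kinds of cells. Their promoters are shown because the genes share a short motif there. The motif TGANTCA, with any letter at N, includes TGACTCA and TGAGTCA, the core letters bound by AP-1 factors such as Fos and Jun. It is its own reverse complement. The search used RefSeq promoter windows of 300 bases (250 before and 50 after each start, GRCm38.p6). The motif was present for 7 of the 9 chromosome 9 genes, Mmp8 and Mmp27 being without it. In Mmp20 the match was TGAATCA, which is neither TGACTCA nor TGAGTCA. The motif TGANTCA was present for 0 of the 22 other members counted. There are 36 other members, and Mmp2, Mmp9, Adamts4, Adamts5 and Adamts19 were among those not counted. Among all 27025 genes with a window, 8.97% held the motif. The 100 bases before a RefSeq start are printed below in lower case for the 5 genes, all on the + strand, with the motif in capitals. They are chr9:7272414-7272513 for Mmp13, chr9:7347274-7347373 for Mmp12, chr9:7445722-7445821 for Mmp3, chr9:7502242-7502341 for Mmp10 and chr9:7691990-7692089 for Mmp7.
Mmp13: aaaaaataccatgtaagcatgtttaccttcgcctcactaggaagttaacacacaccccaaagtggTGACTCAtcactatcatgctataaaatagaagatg
Mmp12: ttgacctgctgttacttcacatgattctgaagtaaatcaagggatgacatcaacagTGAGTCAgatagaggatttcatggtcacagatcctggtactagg
Mmp3: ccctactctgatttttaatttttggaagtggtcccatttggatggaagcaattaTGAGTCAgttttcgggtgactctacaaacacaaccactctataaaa
Mmp10: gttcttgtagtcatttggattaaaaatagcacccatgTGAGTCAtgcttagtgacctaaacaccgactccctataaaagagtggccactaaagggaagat
Mmp7: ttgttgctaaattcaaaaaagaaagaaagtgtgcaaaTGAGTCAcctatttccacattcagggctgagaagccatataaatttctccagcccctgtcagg
The motif begins 35 bases before that start in Mmp13, 44 in Mmp12, 46 in Mmp3, 63 in Mmp10 and 63 in Mmp7. For Mmp12 RefSeq lists more than 1 start, and the printed stretch lies before a later one. The Mmp12 window that covers the GENCODE gene start (7344381) does not hold the motif. A match describes the letters only. Fos, Jun and 11 other immediate early and dissociation genes summed to 21296 CPM in ApcMin and 23498 CPM in VApcMinL fibroblast-like cells. There, 0 of the 13 differed by 2-fold or more. The sum was 20987 and 17128 CPM in myeloid-like cells and 6781 and 6596 CPM in epithelial-like cells. Any link between these genes and the motif was not tested.

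Mmp13 and Mmp12 were highest in myeloid-like cells, Mmp3 and Mmp10 in fibroblasts, and Mmp7 in epithelial-like cells. Mmp13, a collagenase, had 277 CPM (262 to 294) in ApcMin myeloid-like cells and 264 CPM (244 to 285) in those of VApcMinL, against 1.27 and 1.63 CPM in fibroblast-like cells. The intervals of the myeloid-like levels overlapped. Mmp12, the macrophage elastase, was at 370 and 155 CPM in myeloid-like cells and under 5 CPM in every other class. Mmp7 was at 73.6 and 9.66 CPM in epithelial-like cells, and had 17 UMIs in all fibroblast-like cells of both libraries.

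**Figure D1:**
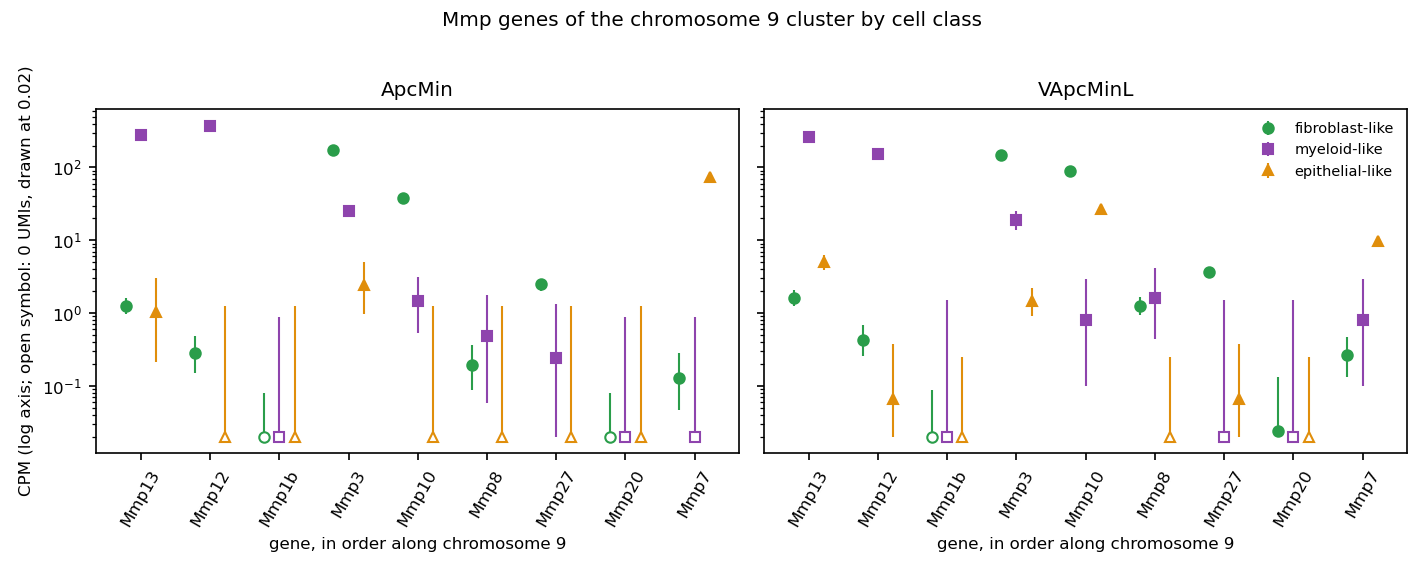
Levels of the Mmp genes of chromosome 9 in fibroblast-like, myeloid-like and epithelial-like cells, in CPM on a log axis, for ApcMin and VApcMinL, with exact 95% intervals for counting error. Open symbols mark genes with 0 UMIs. Mmp3 and Mmp10 lie highest in fibroblast-like cells (172 and 38.5 CPM in ApcMin), Mmp12 and Mmp13 in myeloid-like cells, and Mmp7 in epithelial-like cells.

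Of the 45 members, 34 had at least 200 UMIs over the cells of both libraries. The other 11 had 0 to 158 UMIs: Mmp1b was at 0, Mmp20, Mmp21, Adamts13, Mmp24, Mmp28 and Adamts18 had 1 to 42, and Mmp8, Mmp25, Adamts20 and Adamts16 had 69 to 158. A member is called led by a class where that class was highest in both libraries and at least 2 times the next class in both. This held for 7 of the 34 (20.6%), against 15.5% of the 13678 genes with as many UMIs. Mmp9, Mmp12 and Mmp13 were led by myeloid-like cells, Mmp15 and Mmp17 by neuronal or glial-like cells, Mmp7 by epithelial-like cells and Adamts9 by blood endothelial-like cells. The fibroblasts fell into 6 subsets, named by their markers. The Pi16 subset includes 30 ApcMin and 127 VApcMinL cells that a finer clustering, given below, placed in a Wif1 Itgbl1 cluster. Pi16 adventitial-type cells numbered 1244 in ApcMin and 931 in VApcMinL, Lpl Penk Plau cells 884 and 714, Grem1 Ackr4 trophocyte-like cells 532 and 681, Adamdec1 lamina propria cells 492 and 1152, Scg2 Chodl Fibin cells 171 and 143, and subepithelial Pdgfra-high cells 31 and 75. Among these subsets, 0 of 28 members with at least 200 UMIs were led by a subset by the same rule, against 4.76% of 11765 genes.

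**Figure D2:**
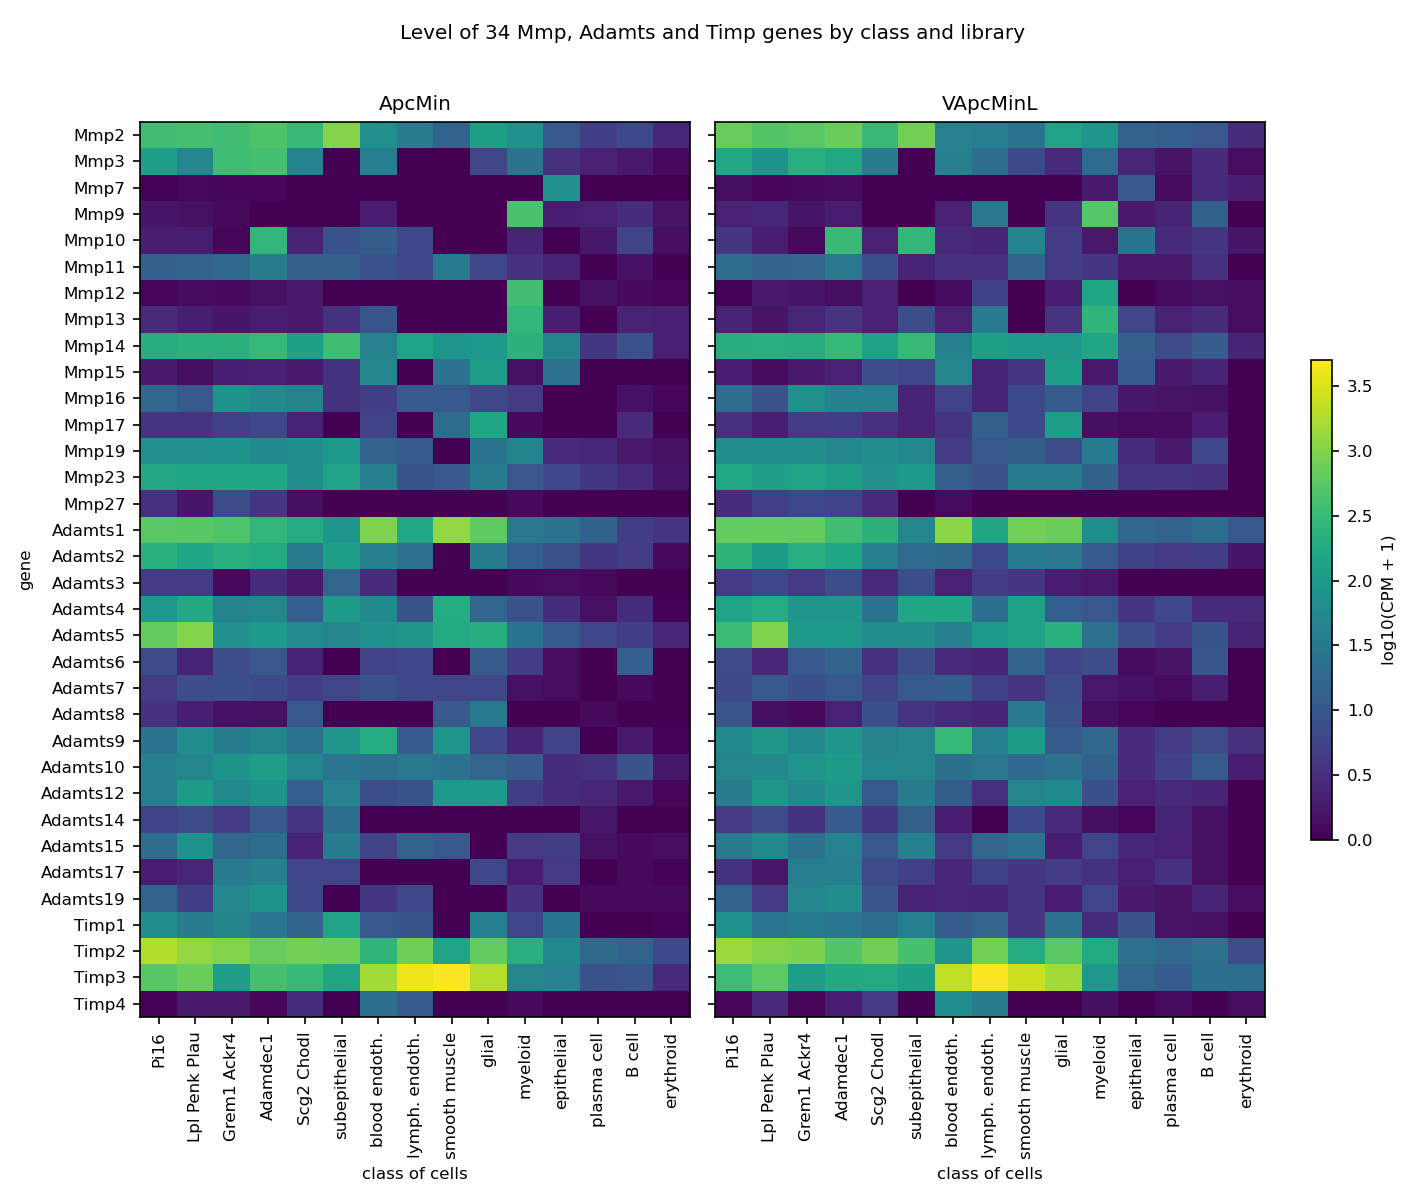
Levels of the 34 members with at least 200 UMIs in 15 cell classes, shown as log10(CPM + 1) and with 1 panel for each library. Most members fill the fibroblast columns, while Mmp9, Mmp12 and Mmp13 stand in the myeloid-like column, Mmp7 in the epithelial-like column, and Mmp15 and Mmp17 in the neuronal or glial-like column.

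Among the collagenases, fibroblasts had little RNA. The 3 collagenase genes of the files summed to 1.46 CPM in ApcMin and 2.88 CPM in VApcMinL fibroblast-like cells. Mmp13 was instead found in 44.8% of ApcMin and 37.6% of VApcMinL myeloid-like cells, or 32.6% and 27.0% when each cell was thinned to 3000 UMIs. Mmp8, the neutrophil collagenase, had 9 UMIs in ApcMin and 52 in VApcMinL fibroblast-like cells (ratio 6.46, 3.15 to 14.9), and 7 and 45 of these came from the Adamdec1 subset. The empty droplets held 0 Mmp8 UMIs in ApcMin and 7 (1.36 CPM) in VApcMinL. In VApcMinL the level over all fibroblast-like cells lay under that value, and the level in the Adamdec1 subset above it.

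The gelatinases were split between fibroblasts and myeloid-like cells. Mmp2, a gelatinase that Mmp14 activates at the cell surface, was at 394 CPM in ApcMin and 625 CPM in VApcMinL fibroblast-like cells, with a UMI in 93.6% and 95.5% of cells (63.4% and 77.9% after thinning). Among the fibroblast subsets it was highest in the small subepithelial Pdgfra-high subset, at 1019 and 823 CPM. In VApcMinL, the Wif1 Itgbl1 cells counted in the Pi16 subset had a higher level, given below. Mmp2 was higher in VApcMinL in each of the 4 largest subsets. Pi16 cells had 371 and 685 CPM (ratio 1.85, 1.79 to 1.91), Adamdec1 cells 468 and 703, Grem1 Ackr4 cells 369 and 559, and Lpl Penk Plau cells 404 and 520. In Scg2 Chodl Fibin cells it was at 310 and 322 CPM. Mmp9, the other gelatinase, was at 432 and 522 CPM in myeloid-like cells, with a UMI in 33.7% and 43.8% of them (24.0% and 31.9% after thinning). In fibroblast-like cells it had only 20 and 42 UMIs, in 0.447% and 0.812% of cells. Both shares are low, and the levels of 0.430 and 1.01 CPM lie under those of the empty droplets, 16 and 24.2 CPM.

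The stromelysins Mmp3 and Mmp10 cut proteoglycans and activate other proenzymes. In the Adamdec1 subset their RNAs were found mostly in different cells. Mmp3 was at 386 CPM in ApcMin and 160 CPM in VApcMinL Adamdec1 cells, and at 355 and 205 CPM in Grem1 Ackr4 cells. Mmp10 had 280 CPM (267 to 294) and 306 CPM (296 to 317) in Adamdec1 cells and at 0.130 to 2.79 CPM in the Pi16, Grem1 Ackr4, Lpl Penk Plau and Scg2 Chodl Fibin subsets. Within the Adamdec1 subset the 2 RNAs were seldom in the same cell. In ApcMin, 95 cells had Mmp3 alone, 85 had Mmp10 alone, 6 had both and 306 had neither. In VApcMinL these numbers were 146, 219, 11 and 776. After thinning to 3000 UMIs, 1 ApcMin cell and 4 VApcMinL cells had both. The cells without a UMI of either gene are the majority in both libraries, so most of the subset is not described by this split.

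A finer clustering, which also did not use the member genes, parted the subset into a larger cluster of 394 and 831 cells and a smaller one of 100 and 321. Mmp10 is among the leading genes of the smaller cluster, so its level there is a description. It had 1399.5 CPM in ApcMin and 913 CPM in VApcMinL in the smaller cluster, and 31.3 and 54.7 CPM in the larger. Mmp3 was the other way round, with 17.6 and 38.0 CPM in the smaller cluster and 462 and 211 CPM in the larger. Timp3 followed Mmp3, at 65.9 and 53.5 CPM in the smaller and 481 and 230 CPM in the larger cluster. Median depth was close between the clusters, at 12470 and 10797 UMIs for ApcMin and 9111 and 9631 UMIs for VApcMinL, larger cluster first. The third stromelysin, Mmp11, was low in all subsets, at 34.5 and 28.9 CPM in Adamdec1 cells.

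**Figure D3:**
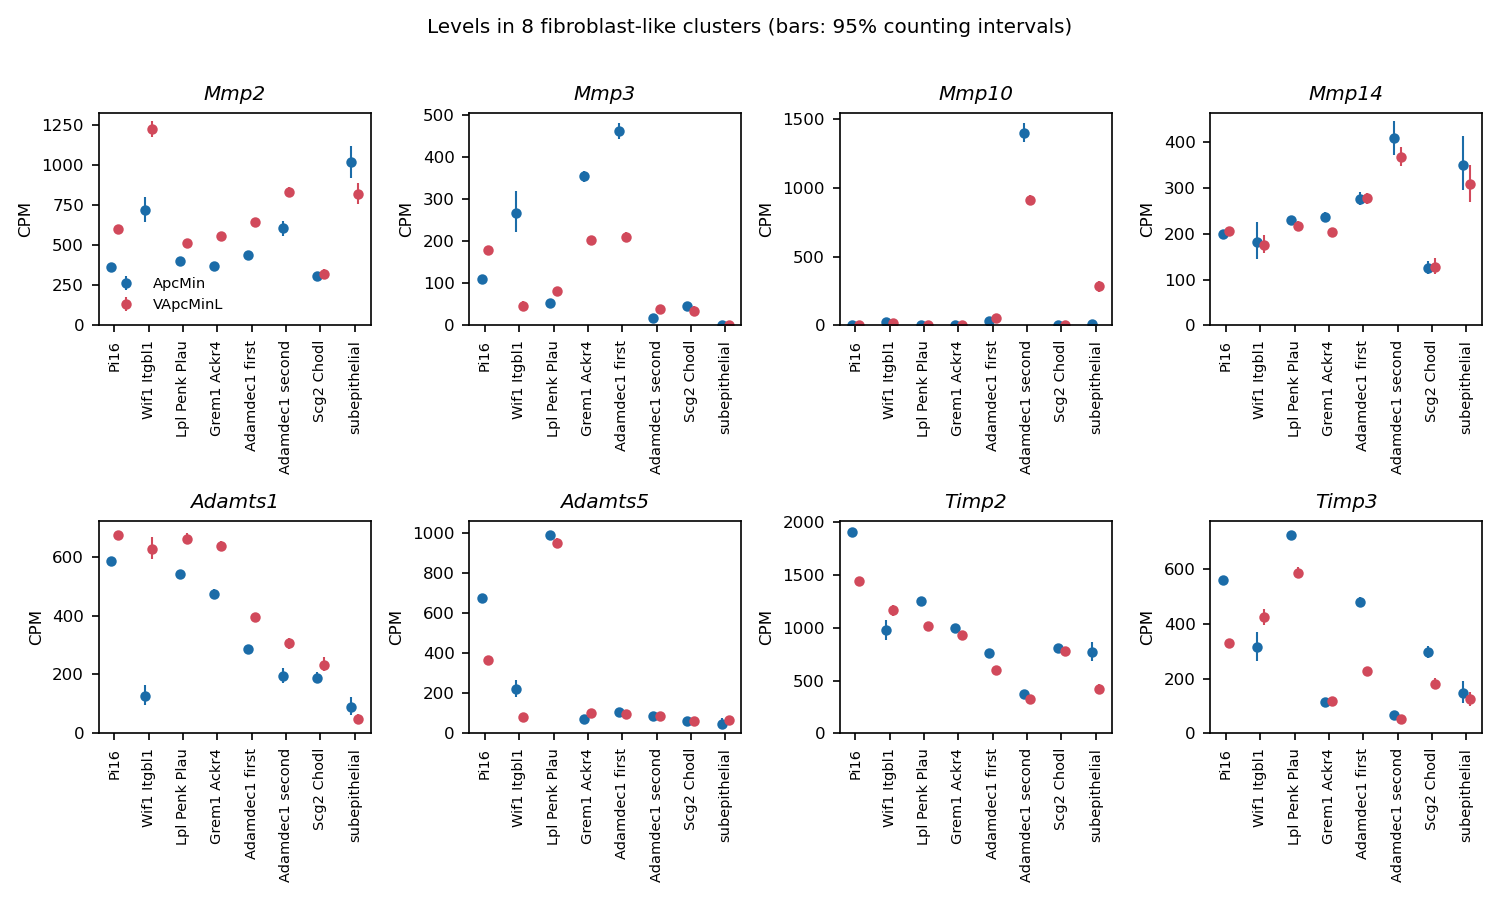
Levels of Mmp2, Mmp3, Mmp10, Mmp14, Adamts1, Adamts5, Timp2 and Timp3 in the 8 fibroblast clusters of the finer clustering, in CPM with exact 95% intervals, for ApcMin and VApcMinL. Mmp10 stands in the smaller Adamdec1 cluster, Mmp3 in the larger one and in Grem1 Ackr4 cells, and Adamts5 in Lpl Penk Plau and Pi16 cells.

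Of the membrane-bound enzymes, Mmp14 was spread most widely. Mmp14 was at 224 CPM in ApcMin and 231 CPM in VApcMinL fibroblast-like cells (ratio 1.03), and between 125 and 352 CPM in each subset of either library. Myeloid-like cells had 239 and 156 CPM, in the range of the fibroblast subsets. Mmp16 was highest in Grem1 Ackr4 cells, at 80.4 and 70.4 CPM, and low in Lpl Penk Plau cells, at 9.93 and 7.91 CPM. Mmp23 was at 154 and 133 CPM in fibroblast-like cells. Mmp15 and Mmp17 were almost absent there, at 0.817 and 1.20 CPM and at 3.16 and 2.79 CPM, and stood in neuronal or glial-like cells instead. Mmp15 had 112 CPM (70.3 to 170) and 120 CPM (101 to 143) there, and Mmp17 had 148 CPM (99 to 212) and 117 CPM (97.5 to 139). These rest on 28 ApcMin and 173 VApcMinL cells, of which 50% and 52.6% had a Mmp15 UMI (17.9% and 28.9% after thinning). Blood endothelial-like cells also carried Mmp15, at 50.9 and 49.1 CPM. Mmp19, a secreted enzyme, varied little among fibroblast subsets, from 49.9 to 92.9 CPM. Mmp27 was low throughout, with its highest levels in Grem1 Ackr4 cells at 6.25 and 5.35 CPM.

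The Mmp and Adamts genes were also summed by role in fibroblast-like cells. Of these roles, the ADAMTS proteoglycanases (7 genes) had the highest sum, at 1184 CPM in ApcMin and 1086 CPM in VApcMinL. The membrane-bound Mmp genes (7) had 415 and 404 CPM and the gelatinases (2) had 394 and 626 CPM. The roles hold different numbers of genes, and the sums are not corrected for that. UMIs count molecules at the 3' end, so these sums need no correction for length, although capture can differ between genes. Adamts1 was at 484 and 551 CPM in fibroblast-like cells but higher in smooth muscle-like cells, at 1274 and 819 CPM, and in blood endothelial-like cells, at 960 and 1157 CPM. Adamts5, an aggrecanase, was high in Lpl Penk Plau cells, at 993 and 952 CPM, and is among their leading genes. Adamdec1 cells held 96.6 and 94.7 CPM of it and Grem1 Ackr4 cells 72.4 and 94.8. Adamts4 and Adamts15, which cut the same proteoglycans, were also highest among the larger subsets in Lpl Penk Plau cells, at 178 and 192 CPM and at 74.8 and 53.8 CPM. Adamts9 was at 193 and 297 CPM in blood endothelial-like cells and 39.5 and 69.9 CPM in fibroblast-like cells.

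The remaining ADAMTS genes had other fibroblast patterns. Adamts2, which trims procollagen, was at 193 and 179 CPM in fibroblast-like cells and was highest in Pi16 cells, at 232 and 253 CPM. Adamts10, Adamts17 and Adamts19 were highest in Adamdec1 cells, with 113 and 109 CPM, 39.3 and 38.8 CPM, and 81.9 and 64.7 CPM. Grem1 Ackr4 cells came next for all 3, and for Adamts17 their 32.2 and 38.2 CPM lay close to the Adamdec1 level. Adamts12 was highest in Lpl Penk Plau cells, at 105 and 91.0 CPM. Adamts16 was found almost wholly in Pi16 cells, which held 130 of its 131 UMIs in ApcMin fibroblast-like cells and all 20 in VApcMinL.

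Of the inhibitors, Timp2, which also takes part in the activation of proMmp2 by Mmp14, had the highest level in fibroblast-like cells. It was at 1883 CPM in ApcMin and 1406 CPM in VApcMinL Pi16 cells, 1253 and 1016 CPM in Lpl Penk Plau cells, 996 and 927 CPM in Grem1 Ackr4 cells, and 687 and 518 CPM in Adamdec1 cells. That order was the same in both libraries. Timp3 was highest outside the fibroblasts, at 4722 and 2529 CPM in smooth muscle-like cells, 4029 and 4544 CPM in lymphatic endothelial-like cells, 1963 and 1536 CPM in neuronal or glial-like cells, and 1556 and 2223 CPM in blood endothelial-like cells. Smooth muscle-like cells were first in ApcMin and lymphatic endothelial-like cells in VApcMinL. The smooth muscle-like class held only 35 and 49 cells. Timp1 was low, at 47.9 and 43.9 CPM in fibroblast-like cells, with 64.9 and 77.3 CPM in Pi16 cells. Timp4 had 23 and 31 UMIs in fibroblast-like cells and was highest in blood endothelial-like cells, at 21.1 and 61.2 CPM.

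**Figure D4:**
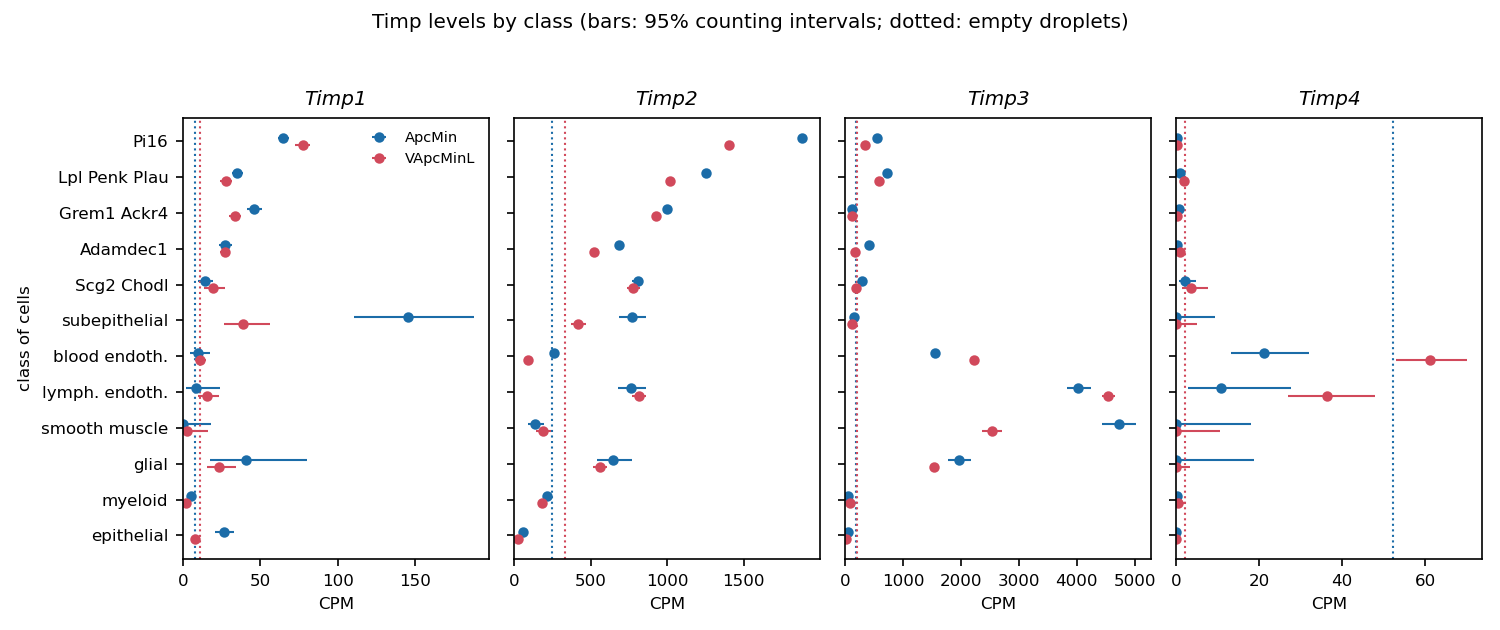
Levels of Timp1, Timp2, Timp3 and Timp4 by cell class in CPM, for ApcMin and VApcMinL, with exact 95% intervals. Dotted lines give each library's empty droplets. Timp2 is highest among fibroblasts in Pi16 cells, Timp3 in smooth muscle-like and lymphatic endothelial-like cells, and the empty droplets of ApcMin lie above every class for Timp4 (52.3 CPM).

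In the comparison of genotypes over all fibroblast-like cells, the summed level of the inhibitors was lower in VApcMinL and that of the Mmp genes higher. The summed Timp level was 1898 CPM in ApcMin and 1293 CPM in VApcMinL (ratio 0.681, 0.674 to 0.688). The summed Mmp level was 1112 and 1355 CPM (ratio 1.22, 1.20 to 1.23), and without Mmp2 the ratio was 1.02. The summed Adamts level was 1557 and 1477 CPM (ratio 0.949, 0.939 to 0.959). The makeup of the class differed between libraries, as the cell numbers of the subsets show. With the same weight for each subset in both libraries, the ratios were 0.764 for Timp, 1.10 for Mmp and 1.04 for Adamts, which turned the direction of the Adamts sum.

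Single members differed more than the sums did. A difference is named here when it reached 2-fold, and the shares of all genes that did so are given beside it. Over fibroblast-like cells, 36 members had at least 50 UMIs. Of these, 3 were at least 2-fold higher in VApcMinL, against 5.62% of 14186 genes, and 1 was at least 2-fold lower, against 1.28%. The median log2 ratio was 0.23 for the members and 0.03 for all genes. The 3 higher were Mmp8 and Mmp9, at the few UMIs given above (ratio 2.35 for Mmp9, 1.35 to 4.22), and Mmp10. Mmp10 went from 38.5 to 88.7 CPM (ratio 2.30, 2.18 to 2.44), and the ratio was 1.86 after thinning and 1.16 with the same subset weights. The lower was Adamts16, with 131 UMIs in ApcMin and 20 in VApcMinL (ratio 0.171, 0.101 to 0.274).

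Among the 10 members with the most UMIs in these cells, none reached 2-fold. Timp3 was at 484 and 283 CPM (ratio 0.585, 0.572 to 0.598), Adamts5 at 530 and 306 CPM (0.578, 0.566 to 0.591) and Timp2 at 1365 and 965 CPM (0.707, 0.698 to 0.716). All 3 were lower in VApcMinL, and with the same subset weights the ratios were 0.667, 0.767 and 0.792. Mmp2 lay in the other direction with a ratio of 1.59 (1.56 to 1.62). Adamts1 (1.14), Mmp14 (1.03), Adamts2 (0.926), Mmp23 (0.865), Mmp3 (0.863) and Adamts4 (1.22) were closer to 1. Of the remaining inhibitors, Timp1 had a ratio of 0.917 (0.862 to 0.976) and Timp4 one of 1.51 (0.850 to 2.71), whose interval includes 1. With empty-droplet RNA subtracted the Timp4 ratio was 10.4, and the empty droplets of ApcMin held 52.3 CPM of it against 0.495 CPM in the class.

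**Figure D5:**
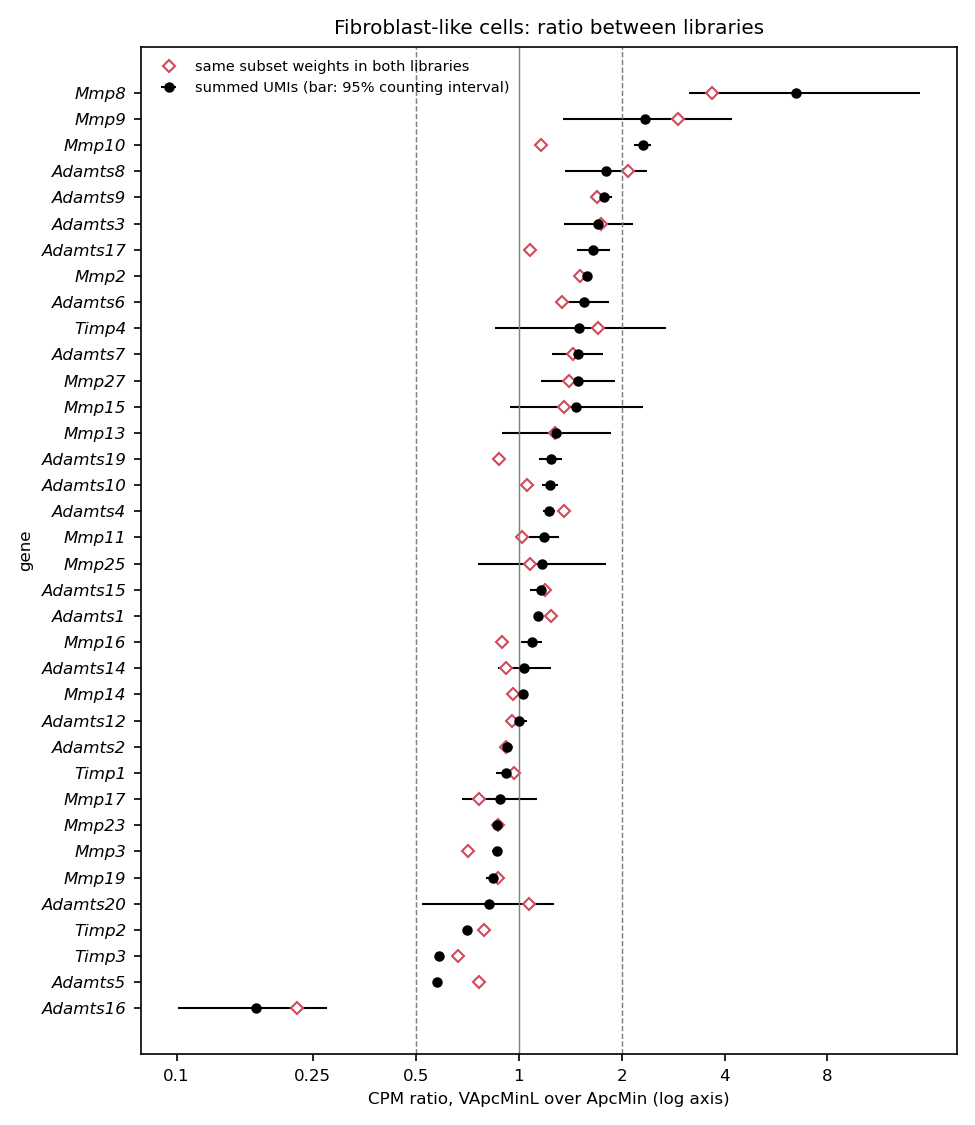
Ratio of VApcMinL to ApcMin level in fibroblast-like cells for the 36 members with at least 50 UMIs, on a log axis with exact 95% intervals. Open diamonds give the ratio with the same subset weights in both libraries, and dashed lines mark 2-fold. Mmp10 moves from 2.30 to 1.16 with the same subset weights in both libraries, while Timp2, Timp3 and Adamts5 stay under 1.

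In Adamdec1 cells, Mmp3 and Timp3 were lower in VApcMinL. Mmp3 was 2.40-fold lower (ratio 0.416, 0.391 to 0.442) and Timp3 2.27-fold lower, from 403 to 178 CPM (0.441, 0.416 to 0.468). These were 2 of 28 members, against 1.18% of 11478 genes at least 2-fold lower. The larger Adamdec1 cluster alone had ratios of 0.457 and 0.477 for the same genes. Mmp3 was lower in Grem1 Ackr4 cells too (ratio 0.578) but higher in Pi16 cells (1.39) and in Lpl Penk Plau cells (1.61). Another 3 members were at least 2-fold higher in Adamdec1 cells, against 2.69% of genes. Adamts15 was at 19.5 and 43.1 CPM (ratio 2.21, 1.81 to 2.72), Adamts3, a procollagen N-propeptidase, at 2.08 and 6.52 CPM (3.14), and Mmp8 had the 7 and 45 UMIs above (3.59, 1.61 to 9.44), with a ratio of 0.854 after thinning. The immediate early list was at 12352 and 16484 CPM in these cells, and its part was not tested.

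In Pi16 cells, Adamts5 and Adamts16 were lower in VApcMinL. The Adamts5 ratio was past 2-fold in 7 of 12 alternatives and the Adamts16 ratio in 12 of 12. Adamts5 was at 666 and 329 CPM (ratio 0.494, 0.477 to 0.512), while Lpl Penk Plau cells, which have more of it, had a ratio of 0.958. Adamts16 had 6.82 and 1.55 CPM (0.227), with a UMI in 6.51% and 1.61% of cells (1.61% and 0.430% after thinning). These 2 of 31 members compare with 1.51% of 12003 genes. At least 2-fold higher were 4 members, against 4.05% of genes: Adamts9 at 25.7 and 55.8 CPM (2.17), Adamts8 at 2.41 and 8.36 CPM (3.47), and Adamts17 and Mmp10 with 18 and 32 UMIs and 20 and 36 UMIs. The Mmp10 levels, 1.05 and 2.79 CPM, lie under the empty droplets (17.7 and 28.9 CPM). Its ratio of 2.66 fell short of 2-fold in 3 of 11 alternatives (lowest 1.67), and that of Adamts17, 2.62, in 1 of 12 (1.60). Cfd (adipsin), a fat cell marker, had 19 UMIs (0.996 CPM) in ApcMin and 4558 UMIs (353 CPM) in VApcMinL Pi16 cells, and its part was not tested. The finer clustering took 30 ApcMin and 127 VApcMinL cells out of the Pi16 class into a cluster led by Wif1 and Itgbl1, genes of subepithelial fibroblasts. In that cluster Mmp2 was at 723 and 1225 CPM, Adamts1 at 126 and 628 CPM and Timp1 at 359 and 109 CPM. The Pi16 cluster of the finer clustering had a ratio of 1.65 for Mmp2 and of 0.540 for Adamts5, which is short of 2-fold. Without the Wif1 Itgbl1 cells, Adamts8 (1.81) and Adamts9 (1.85) also fell short. Adamts8 was past 2-fold in 10 of 12 alternatives and Adamts9 in 8 of 12.

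In Grem1 Ackr4 cells 0 of 24 members reached 2-fold in either direction, against 1.27% of 10853 genes higher and 0.885% lower. In Lpl Penk Plau cells it was 0 of 22, against 1.63% of 10985 genes higher and 1.1% lower. In Scg2 Chodl Fibin cells it was 1 of 15: Adamts4 was higher, at 11.6 and 26.6 CPM (2.29), against 3.9% of 8374 genes higher and 0.908% lower. The subepithelial Pdgfra-high subset, with 31 ApcMin and 75 VApcMinL cells, had 1 of 13 higher, against 7.6% of 4053 genes, and 2 lower, against 4.81%. Adamts2 was at 123 and 18.9 CPM there (ratio 0.153) and Timp1 at 146 and 39.1 CPM (0.268). Mmp10 had 3 UMIs in ApcMin, all in 1 cell, and 210 UMIs in VApcMinL, in 8 cells (7.53 and 283 CPM, ratio 37.6, 12.7 to 184). The share of cells with a Mmp10 UMI was 3.23% and 10.7% (3.23% and 6.67% after thinning), so the level in VApcMinL rests on 8 of 75 cells. The immediate early list was at 2860.0 and 6902 CPM in this subset, and its part was not tested.

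Myeloid-like cells showed 1 member lower and 1 higher among 15, against 2.77% and 2.17% of 8815 genes. Mmp12 was lower in VApcMinL, at 370 and 155 CPM (ratio 0.418, 0.372 to 0.468), and 10 cells held 84.8% of its UMIs in ApcMin and 87.1% in VApcMinL. It had a UMI in 15.6% and 11.5% of cells (10.1% and 8.41% after thinning), and the ratio was 0.764 without the top and bottom 1% of cells by genes. Mast cell proteases lead this class, and the summed mast cell markers were at 14994 CPM in ApcMin and 78.8 CPM in VApcMinL, with 0 and 2 of 8 at 0. The immunoglobulin gene Igkc, made by plasma cells, was at 6628 and 39633 CPM in this class. Their part was not tested. Adamts1 was higher, at 29.8 and 67.8 CPM (2.28), and both values lie under the empty droplets, 123 and 172 CPM. Without the highest doublet scores its ratio was 1.41. Mmp9 and Mmp13, given above, differed less than 2-fold.

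Endothelial cells differed in a few members. In blood endothelial-like cells, 124 in ApcMin and 485 in VApcMinL, Adamts4 was at 58.6 and 155 CPM (ratio 2.65) and Timp4 at 21.1 and 61.2 CPM (2.89, 1.86 to 4.72), 2 of 14 members against 3.13% of 7994 genes. Of the Timp4 UMIs in VApcMinL, 84.7% lay in 10 cells, and the ratio was 1.57 after thinning. Timp2 (261 and 87.7 CPM), Mmp23 (40.4 and 12.1 CPM) and Adamts2 (41.3 and 17.8 CPM) were lower, 3 of 14 against 2.61% of genes. In VApcMinL their levels lay under the empty droplets (330, 38.4 and 36.4 CPM), and in ApcMin above them (248, 28.2 and 28.2 CPM). These 3 genes were all higher in fibroblast-like cells, and the fibroblast markers summed to 7160 CPM in ApcMin and 2162 CPM in VApcMinL blood endothelial-like cells. Without the cells of highest doublet score all 3 turned, with ratios of 2.78, 4.17 and 2.21. In lymphatic endothelial-like cells, 38 and 175, Adamts9 had 4 and 53 UMIs (3.58) and Timp4 4 and 50 (3.37, 1.24 to 12.9). Each fell short of 2-fold in 2 of 11 alternatives, with lowest ratios of 1.34 and 1.25. These 2 of 9 were higher, against 4.16% of 5341 genes, while 0 were lower, against 1.85%. The immediate early list was at 4639 and 10759 CPM in that class.

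Epithelial-like cells, 49 in ApcMin and 346 in VApcMinL, were present despite the sort against Epcam. Of 13 members, 7 were at least 2-fold lower in VApcMinL, against 17.9% of 10307 genes, and 2 higher, against 3.7%. Mmp7 was at 73.6 CPM (64.0 to 84.1) in ApcMin and 9.66 CPM (8.14 to 11.4) in VApcMinL, a ratio of 0.131 (0.106 to 0.163). It was found in 6 of 49 and 13 of 346 cells (12.2% and 3.76%, or 6.12% and 0.867% after thinning), so the level in either library is that of a few cells. Without the top and bottom 1% of cells by genes its ratio was 0.625. Paneth cell markers were low, at 16.8 and 8.11 CPM in all, with 3 and 2 of the 6 at 0. Mmp10 had 0 UMIs in ApcMin and 398 in VApcMinL, all in 6 cells, which is at least 25.9-fold higher with the floor of 3 counts for the library at 0. Mmp13 had 3 and 75 UMIs (ratio 4.88, 1.61 to 24.2), the 75 in 3 cells. The other 6 lower members were Mmp14 (46.4 and 12.2 CPM), Mmp15 (24.8 and 10.5), Mmp23 (5.50 and 2.75), Timp1 (26.5 and 7.91), Timp2 (56.7 and 23.9) and Timp3 (43.3 and 15.5). Without the 10 cells richest in each gene, Mmp14, Mmp15, Timp1, Timp2 and Timp3 turned to ratios between 1.56 and 5.89. Of the lower members, Timp2, Timp3, Mmp14 and Mmp23 had levels under the empty droplets in both libraries. The droplets had 248 and 330 CPM of Timp2, 180 and 211 of Timp3, 49.0 and 55.4 of Mmp14, and 28.2 and 38.4 of Mmp23. For Timp1 (8.02 and 11.2 CPM in the droplets) only the VApcMinL level was under them.

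In neuronal or glial-like cells 0 of 9 members reached 2-fold, against 4.74% of 4194 genes higher and 2.27% lower, and in smooth muscle-like cells 0 of 7, against 4.16% of 1849 genes higher and 3.68% lower. In the blood cell classes, 5 ratios passed 2-fold, all of them higher in VApcMinL and at levels under the empty droplets. B cell-like cells had 2 of 6 members higher, against 2.27% of 7614 genes, and 0 lower, against 0.919%. Adamts1 had 15 and 43 UMIs (3.90 and 20.7 CPM, ratio 5.31, 2.89 to 10.3) and Timp3 32 and 44 UMIs (8.31 and 21.2 CPM, 2.55, 1.58 to 4.15). In erythroid-like cells 67% of 1016 genes were at least 2-fold higher and 1.38% lower, with a median log2 ratio of 1.35 over all genes, and 2 of 3 members were higher and 0 lower. There Adamts1 had 34 and 27 UMIs (2.71 and 9.34 CPM, ratio 3.44) and Timp3 23 and 60 UMIs (1.83 and 20.8 CPM, ratio 11.3, 6.89 to 19.2). With median-of-ratios scaling these ratios were 1.38 and 4.54. Plasma cell-like cells had 1 of 4 higher, against 5.76% of 4115 genes, and 0 lower, against 2.07%: Mmp2 with 16 and 41 UMIs (3.90 and 11.9 CPM, ratio 3.05, 1.67 to 5.82). The empty droplets held 123 and 172 CPM of Adamts1, 180 and 211 CPM of Timp3 and 70.3 and 113 CPM of Mmp2.

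Genes that act with the proteases and inhibitors were taken from lists by role and compared in fibroblast-like cells, where 5.62% of all genes were at least 2-fold higher in VApcMinL and 1.28% lower. Of the plasminogen activation genes, which start a cascade that activates several proMmps, 0 of 6 reached 2-fold, and their sum was 826 CPM in ApcMin and 548 CPM in VApcMinL (ratio 0.664). Serpine2, an inhibitor, was at 341 and 176 CPM and Plat, a plasminogen activator, at 226 and 127 CPM. Of the convertases and clearance receptors, 1 of 7 was lower: Pcsk6, a proprotein convertase, at 203 and 95.4 CPM (ratio 0.47). Lrp1, a receptor that clears several of these enzymes, was at 705 and 796 CPM. Of the ADAMTS-like proteins, which lack the protease domain, 2 of 7 were higher, with Adamtsl2 at 11.7 and 45.3 CPM (3.85) and Thsd4 at 4.73 and 9.64 CPM (2.04). Of 9 ADAM genes, 1 was higher: Adamdec1, a marker of the subset that was more numerous in VApcMinL, at 1143 and 3045 CPM (2.66). Among 11 other matrix proteases 0 reached 2-fold in either direction, and among 11 matrix substrates 1 was higher, the von Willebrand factor gene Vwf with 39 and 76 UMIs. Thsd4 and Vwf are named because they passed 2-fold, after their values were seen. Dcn, the proteoglycan decorin, was at 19444 and 17779 CPM and Col1a1 at 2595 and 2798 CPM.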

How the data were processed

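The values are UMI counts per gene and barcode, which the authors made with Cell Ranger (2.1.1 in the methods) on the 10x mm10 reference and deposited without normalization or cell filters. The headers of the deposited count files name another Cell Ranger release. The Mmp, Adamts and Timp genes, the marker lists and the partner lists were chosen with earlier results of these data known.

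Barcodes with at least 3000 UMIs and at most 20% mitochondrial UMIs were kept, which covers 83.6% of the 93203061 ApcMin UMIs and 74.4% of the 101609269 VApcMinL UMIs. The libraries were integrated with anchors on 2000 genes and 30 dimensions (Seurat 5.3.0, R 4.3.3). Louvain clusters at resolution 0.2 (finer: 0.4) used 20 principal components and 20 neighbours, with the member genes left out. Clusters were named by hand from the marker lists after their leading genes were seen, so class sizes need not equal the study's. Doublets were kept, and leaving out the highest Scrublet scores (scanpy 1.11.5) was an alternative. A cluster of T cell and acinar genes (128 and 100 cells) and one of B cell and fibroblast genes (48 and 23) stayed unnamed, and a mesothelial-like one (7 and 35) was too small to compare. They were left out of the comparisons.

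For each class and library, UMIs were summed and divided by the class total. Intervals are exact Poisson for levels and exact conditional binomial for ratios (SciPy 1.17.1, NumPy 2.4.6, pandas 2.3.3, Python 3.11.15), tested on simulated data. Ratios are VApcMinL over ApcMin for genes with at least 50 UMIs, and 2-fold is the threshold. A library at 0 was set at 3 counts. Thinned shares use 3000 UMIs per cell, so no cell was too shallow. Empty droplets are barcodes ranked after the first 45000 and up to 90000 by UMIs. The text names members with at least 200 UMIs by class. For the genotypes it names the Timp genes, members past 2-fold and the 10 members with the most UMIs in fibroblast-like cells, and up to 4 genes per partner list. Each result was recomputed under 12 other settings, and 2 more were chosen after seeing the data. Plots were made with matplotlib 3.10.9.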

Additional observations from a re-analysis of the deposited data

Results flagged for a closer look

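Timp4 had more UMIs in the empty droplets of ApcMin than in any of its cell classes. The level there was 52.3 CPM, from 189 UMIs in 183 of 45000 barcodes and at most 2 UMIs in each, while the highest class, blood endothelial-like cells, was at 21.1 CPM. In the empty droplets of VApcMinL, Timp4 had 11 UMIs (2.13 CPM). These barcodes are outside the comparisons and no source of the RNA was tested.

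The members also had UMIs in barcodes of 500 to under 3000 UMIs, which the cell filter left out. Their summed level was 1030.3 CPM in ApcMin (2826 UMIs in 1921 barcodes) and 1813 CPM in VApcMinL (10416 UMIs in 4152 barcodes).

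Timp3 was higher in VApcMinL in erythroid-like cells (ratio 11.3) and lower in epithelial-like cells (ratio 0.358). The levels of both classes lie under the empty droplets, and the difference between the classes was not tested.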

How the results depend on the processing

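No paired analysis was possible because there is 1 library per genotype. Over fibroblast-like cells, the Timp sum stayed lower in VApcMinL in all alternatives. Its ratio of 0.681 became 0.764 with the same subset weights, 0.671 without the Wif1 Itgbl1 cluster and 0.615 without Timp2, the member with the most UMIs. The Mmp ratio of 1.22 became 1.18 with cells thinned to 3000 UMIs, 1.10 with the same subset weights and 1.02 without Mmp2. The Adamts ratio of 0.949 became 0.966 as a mean of CPM per cell, 0.964 after thinning and 0.864 without Adamts1, and it reversed to 1.04 with the same subset weights. The number of members led by a class was 6 to 8. Mmp9, Mmp12, Mmp13 and Mmp17 were led in every setting. Adamts9 was lost with a higher UMI limit for cells (4721 in ApcMin and 6255 in VApcMinL). Mmp7 was lost without the top and bottom 1% of cells by genes, and Mmp15 as a mean of CPM per cell and after thinning. Timp4 entered after thinning and Mmp10 with the finer clustering.

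Of 42 single ratios past 2-fold, 13 were past it in every alternative that gave a value, 29 were not in at least 1, and 10 reversed in at least 1. Those 13 include Mmp3, Timp3, Adamts3 and Adamts15 in Adamdec1 cells and Adamts16 in Pi16 cells. With the 10 cells richest in each gene left out of each library, the ratios in epithelial-like cells reversed for Mmp14 (2.95), Mmp15 (5.89), Timp1 (1.56), Timp2 (3.04) and Timp3 (2.56), and those in blood endothelial-like cells for Mmp23 (1.60), Adamts2 (1.95) and Timp2 (1.01). Without the highest doublet scores, the last 3 were 4.17, 2.21 and 2.78. Epithelial-like Mmp15 also reversed without the top and bottom 1% of cells by genes (1.41) and after thinning (1.13), epithelial-like Mmp13 as a mean of CPM per cell (0.564), and Mmp8 in Adamdec1 cells after thinning (0.854). The cause was not tested. In 12 combinations of ratio and alternative no value could be given. Of 32 ratios under 2-fold in fibroblast-like cells, 6 passed it in some alternative. Depth limits Mmp8, Mmp9, Timp4 and Adamts16, which rest on 9 to 131 UMIs per library in fibroblast-like cells.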
